A study of Mus musculus with 12 samples.

Results

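The growth hormone-STAT5 axis of the liver and the major urinary protein (Mup) genes were followed through 10 mouse genes, Ghr, Stat5a, Stat5b, Socs2, Cish, Igf1, Igfals, Mup3, Mup12 and Mup20. They are 10 of the 55357 gene identifiers listed in each of the 2 count tables of the series, 1 of liver and 1 of cultured macrophages. The genes were chosen by pathway membership and by the measured rise of Mup12 in the liver table, where it had been seen to be higher in the livers of mice given esculetin. The liver contrast of Mup12 is therefore given as a description with no p-value, and the liver values of the other members are read as descriptions as well. The rule of choice did not use the cell values. Earlier results of these data were known, however, so the tests in cells may not be independent of the choice.

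RNA was sequenced in 12 libraries that made up 4 groups of 3. The livers came from wild-type male C57BL6/J mice of 8-9 weeks, gavaged daily for 7 days with 90 mg/kg of esculetin, a plant coumarin, or with the vehicle of 2.5% Tween-80. Both liver groups ate a control diet (10% of kcal from fat) for 4 days, followed by 3 days on a high-fat diet (60% of kcal from fat), so no liver group was without high-fat feeding. Both cell groups were RAW264.7 cells, a mouse macrophage line, loaded for 24 h with 25 µg/mL of fluorescent (DIL) oxidized low-density lipoprotein (oxLDL), with 40 µg/mL of esculetin or with DMSO. The study made each liver sample from a pair of mice, and the labels do not say whether the cell replicates were separate cultures. P-values in the cells thus measure the spread between these samples, which may be technical.

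Growth hormone from the pituitary binds its receptor GHR on hepatocytes and activates the kinase JAK2, which phosphorylates the transcription factors STAT5A and STAT5B, with STAT5B the main form in liver. Textbook targets of STAT5 there are Igf1, the circulating growth factor, Igfals, which encodes the subunit that keeps IGF1 in a long-lived serum complex, and the feedback inhibitors Socs2 and Cish. Male mice release the hormone in pulses, and this pattern maintains male-biased liver genes, among them many Mup genes, whose small secreted lipocalins bind pheromones in urine.

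The Mup genes lie in a cluster on chromosome 4 and many of them are near-identical copies, which bears on how their counts can be read. Mup12 (GRCm39 chr4:60693376-60697325, minus strand) and Mup1 differed at 2 of the 540 coding bases, and Mup12 and Mup7 at 4. The stretches below are the first 60 coding bases of Mup12 and the best matching 60 bases of 5 relatives, most of which encode the signal peptide removed on secretion. This stretch was taken as the one that sets these relatives most apart from Mup12. Of the in-frame stretches of 60 bases, it had the most relatives with a difference and, among those, the most differing bases. Capitals mark bases that differ from Mup12. All stretches start at coding base 1, except Mup20 at base 4 and Mup3 at base 13.
Mup12: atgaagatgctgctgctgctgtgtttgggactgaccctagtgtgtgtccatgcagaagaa
Mup1: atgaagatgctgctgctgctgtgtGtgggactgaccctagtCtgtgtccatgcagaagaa
Mup7: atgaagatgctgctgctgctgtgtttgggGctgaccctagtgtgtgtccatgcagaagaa
Mup14: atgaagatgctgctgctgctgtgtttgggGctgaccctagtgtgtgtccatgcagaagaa
Mup20: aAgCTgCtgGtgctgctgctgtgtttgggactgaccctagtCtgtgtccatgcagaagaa
Mup3: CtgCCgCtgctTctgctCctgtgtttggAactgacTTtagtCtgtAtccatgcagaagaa

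Mup7 and Mup14 matched Mup12 at all but 1 of these bases, Mup20 differed at 6 and Mup3 at 11. Along the whole canonical transcript of Mup12, 75.4% of all 150-base windows were present letter for letter in another Mup transcript, and 73.3% were present in that of Mup1. The same share was 31.1% for Mup20, all of it with the pseudogene Mup-ps19, and 0% for Mup3. How reads that match several copies were assigned is not given in the sources used here, so the split of counts between Mup12 and its closest copies is uncertain.

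Library totals ran from 14659876 to 20346460 counts in liver and from 13752842 to 20001959 in cells. Levels are CPM, counts relative to the size of the library, scaled by the trimmed mean of M-values. Genes with an adjusted p-value under 0.05 in edgeR's quasi-likelihood test are referred to as called. Of 12813 genes tested in liver, 11 were called, 0.0859%. The liver library control 1 stood apart, at -37.9 on the first principal component (44.9% of the variance) against -2.77 to 14.4 for the others. Summed hepatocyte markers spanned 114989 to 132441 CPM in control livers and 104196 to 129904 CPM with esculetin. Summed macrophage and Kupffer cell markers also overlapped, at 422 to 509 against 403 to 450 CPM. In the cells the summed hepatocyte markers reached at most 0.415 CPM, with Apoa1, Ttr, Serpina1a, Cps1 and Tat at 0. In such bulk samples, fewer cells of a type and less RNA per cell cannot be told apart.

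Per kilobase of canonical transcript, the level in control livers fell in the order Mup3 (9169 CPM per kb), Mup20 (3929), Mup12 (62.0), Ghr (61.2), Igf1 (53.3), Igfals (40.4), Stat5b (14.0), Stat5a (4.31), Socs2 (2.29) and Cish (2.10). The control ranges of the neighbours Mup12, Ghr and Igf1 overlapped, as did those of Stat5a and Socs2 and those of Socs2 and Cish. All 10 members were tested in liver. None of the 9 members other than Mup12 was called, their adjusted p-values running from 0.244 to 0.941 (edgeR). Of these, 1, Socs2, had an unadjusted p-value under 0.05, beside 8.37% of all tested genes (edgeR). DESeq2 and limma-voom also called 0 of the 9. With no filter on low counts Socs2 and Cish were called. They were also called with the replicate number as a block, a pairing that the labels do not name. Apart from Mup12, for whose rise the genes were chosen, the groups did not overlap in 1 of 9 members, Socs2, which was higher with esculetin, and in 0 of 9 in the lower direction. Over all tested genes, 6.52% did not overlap in the higher and 7.95% in the lower direction.

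**Figure D1:**
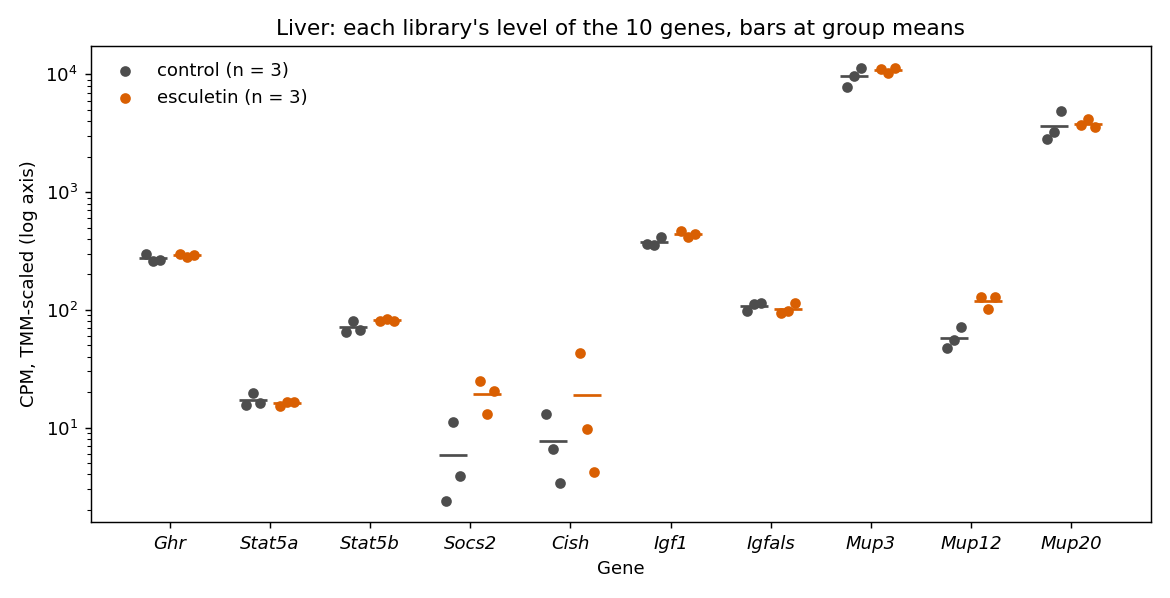
Liver level of the 10 genes (x axis) in CPM on a log axis, 1 point per library and bars at the mean of each group of 3. Esculetin points lie above all control points only for Socs2 and Mup12, and Cish is highest in esculetin 1 at 42.9 CPM.

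Ghr, the hormone's receptor (chr15:3347235-3613024, minus strand), stood at 300, 259 and 266 CPM in the 3 control livers and at 297, 282 and 295 CPM with esculetin. The groups overlapped, and the highest library was a control. The fitted log2 fold change was 0.08 ± 0.12 (SE).

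Stat5b (chr11:100671556-100741589, minus strand) had 64.5, 80.8 and 68.0 CPM in control livers and 79.6, 84.2 and 79.9 CPM with esculetin. Control 2 lay within the esculetin range and the other controls below it, for a log2 fold change of 0.19 ± 0.12. Stat5a (chr11:100750177-100776065, plus strand) was the lower of the STAT5 pair, at 15.4, 19.7 and 16.1 CPM in control and 15.4, 16.5 and 16.4 CPM in esculetin livers. These values overlapped fully, and the log2 fold change was -0.09 ± 0.15, or 0.03 without control 2. Stat5a is crossed on the opposite strand by Stat3, which held 1316 to 2013 counts per liver library, and without a stated strand setting reads in the overlap cannot be told apart.

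Within a library, the ratio of Stat5a to Stat5b per kilobase does not depend on library size. It was 0.308, 0.314 and 0.304 in control livers and 0.248, 0.252 and 0.265 in esculetin livers, with no overlap between the groups. The ratio was formed after the values of both genes were known and was not tested.

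Socs2 (chr10:95219523-95253929, minus strand), a STAT5 target whose protein restrains growth hormone signalling, had 2.40, 11.2 and 3.85 CPM in control livers, from 39, 227 and 66 counts. With esculetin it had 24.9, 13.1 and 20.3 CPM, from 456, 201 and 313 counts. All esculetin livers lay above all controls, but control 2 and esculetin 2 lay close together. Its log2 fold change was 1.72 ± 0.42, a 3.28-fold difference of the fitted levels, with an adjusted p-value of 0.244. Leaving out the outlying control 1 gave 1.35, and leaving out control 2 gave 2.63.

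Cish (chr9:107173225-107179983, plus strand), the other early feedback inhibitor, had 13.0, 6.56 and 3.38 CPM in control livers and 42.9, 9.67 and 4.21 CPM with esculetin. The groups overlapped, with esculetin 1 far above every other library. The mean was 7.65 ± 4.91 CPM in control and 18.9 ± 20.9 CPM in esculetin livers (SD, n = 3), and the log2 fold change was 1.32 ± 0.66. Without esculetin 1 it was -0.16. Socs2 and Cish spanned 10.4-fold and 12.7-fold between their lowest and highest liver libraries, against 1.16-fold for Ghr and 1.32-fold for Igf1.

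Igf1 (chr10:87693642-87772904, plus strand) had 360, 353 and 418 CPM in control livers and 467, 417 and 443 CPM with esculetin. Control 3 exceeded esculetin 2 by a small margin, which was the only overlap. On the log2 scale the difference was 0.23 ± 0.12, and it ranged from 0.17 to 0.29 over the alternatives tried. The antisense gene Igf1os held 14 to 58 counts per liver library. Igfals (chr17:25084971-25100984, plus strand) had 97.4, 113 and 114 CPM in control and 93.1, 97.5 and 115 CPM in esculetin livers. Both the lowest and the highest library belonged to the esculetin group, and the log2 fold change was -0.09 ± 0.13.

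The palindromic STAT5 motif TTCNNNGAA, which reads the same on both strands, was searched from 250 bases before to 50 after the start of each canonical transcript in GRCm39. It was present in 1914 of 21627 protein-coding promoters, 8.85%. Of the members only Igfals held a match, 1 of 10, and none of the 22 Mup genes did. A match in this window is a description of letters and not of binding.

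Mup3 (chr4:61947447-62005620, minus strand) was the most abundant Mup transcript per kilobase, with 7876, 9781 and 11253 CPM in control livers and 11153, 10339 and 11427 CPM with esculetin. The groups overlapped, with control 1 lowest, and the log2 fold change was 0.19 ± 0.16, or 0.07 without control 1 and 0.30 without control 3. Mup20 (chr4:61968464-61972395, minus strand), which encodes the male pheromone darcin, lies inside the annotated span of Mup3 on the same strand. It had 2819, 3251 and 4869 CPM in control livers and 3734, 4175 and 3558 CPM with esculetin. Control livers held both its lowest and its highest value. Its log2 fold change was 0.07 ± 0.19, and -0.08 without control 1.

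Mup12 had 47.2, 55.3 and 70.9 CPM in control livers, from 768, 1120 and 1216 counts, and 128.5, 101.6 and 128.4 CPM with esculetin, from 2358, 1565 and 1985 counts. Every esculetin liver lay above every control, esculetin 2 being the lowest of its group. The mean was 57.8 ± 12.0 CPM in control and 119.5 ± 15.5 CPM in esculetin livers (SD, n = 3), a log2 fold change of 1.05 ± 0.16 or 2.07-fold. This is the value that led to the choice of these genes. Over all alternatives the log2 fold change ran from 0.93, without control 1, to 1.21, without control 3.

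The files list 22 Mup genes, of which 20 were tested in liver. Of the 19 other than Mup12, 0 were called and 11 had an unadjusted p-value under 0.05 (edgeR). An unadjusted p-value under 0.05 was found for 8.37% of all tested genes. Under limma-voom 0 and under DESeq2 4 of the 19 were called. All 19 log2 fold changes were above 0, from 0.07 for Mup20 to 1.44 for Mup9, with a median of 0.78 against -0.02 over all tested genes. Without control 1 the number above 0 was 17 of 19 and the median 0.58, and without esculetin 1 they were 18 of 19 and 0.56. In the other direction, without control 3 the median was 1.04 with 17 of 19 at an unadjusted p-value under 0.05 and 1 called, and without esculetin 2 it was 0.995 with 2 called. Most of these genes share identical stretches with other copies and are then not separate measurements. They are also read from the liver contrast whose Mup12 value led to the choice, so their p-values are descriptions. The groups did not overlap in 4 of the 19, Mup22, Mup1, Mup8 and Mup2, or 21.1%, beside 6.52% of all tested genes.

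Mup22 had 165, 208 and 169 CPM in control livers and 326, 264 and 321 CPM with esculetin, for a log2 fold change of 0.75 ± 0.14. Mup2 had 20.5, 20.2 and 24.9 CPM in control and 43.3, 33.2 and 36.0 CPM in esculetin livers, or 0.78 ± 0.15. In both genes the gap between the groups was wider than the spread of the controls but narrower than that of the esculetin livers. The adjusted p-value was 0.0839 for each (edgeR). Like those of the other copies, these p-values come from the contrast in which the rise of Mup12 was seen, and are read as descriptions. Mup1, the closest relative of Mup12, had 20.9, 43.9 and 37.1 CPM in control and 118, 62.0 and 83.0 CPM with esculetin, for a log2 fold change of 1.37 ± 0.26 and an adjusted p-value of 0.104. Mup7, the most abundant copy after Mup3 by mean CPM, had 3370, 8115 and 12556 CPM in control and 16133, 6596 and 9067 CPM with esculetin. Its groups overlapped widely, with control 1 lowest and esculetin 1 highest, and its log2 fold change was 0.40 ± 0.40.

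**Figure D2:**
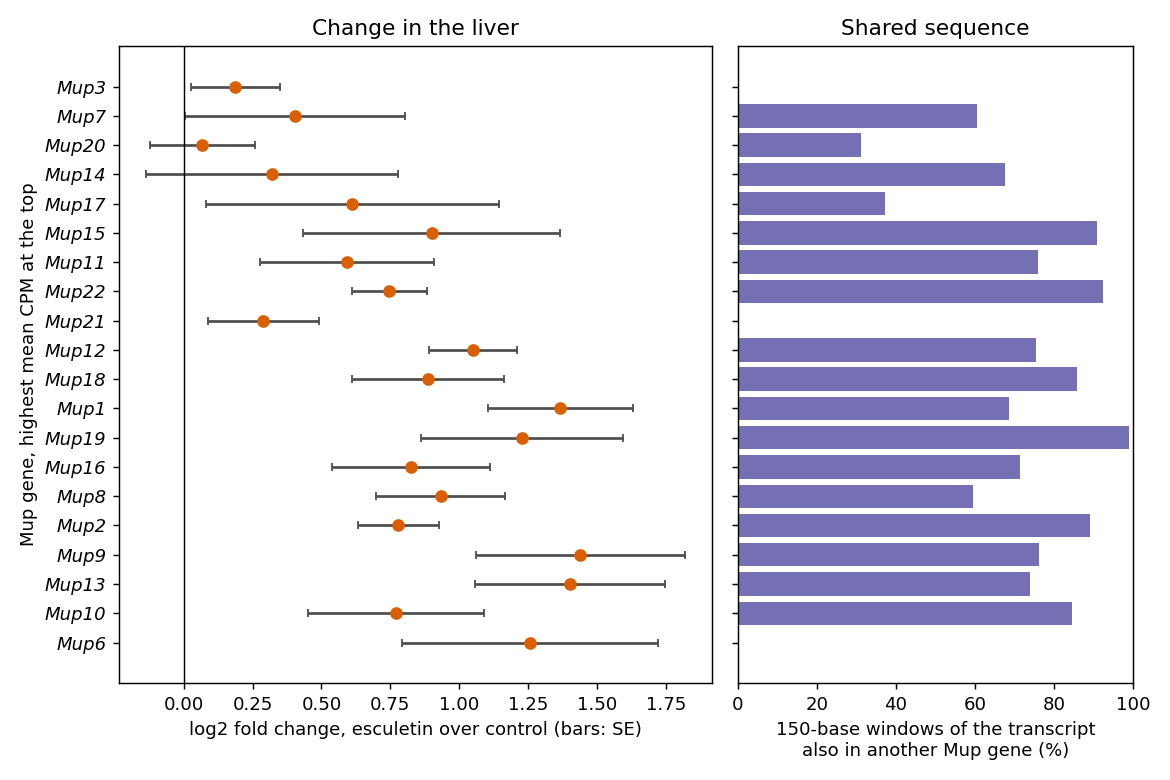
Left, log2 fold change in liver (x axis, bars show the SE of the edgeR fit, 3 against 3 libraries) of the 20 tested Mup genes, ordered by mean CPM. Right, the percentage of 150-base windows of each transcript present in another Mup transcript. The abundant Mup3 and Mup20 lie at 0.19 and 0.07, Mup12 at 1.05, and Mup9 is highest at 1.44.

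The same libraries were extreme throughout the family. Control 1 was the lowest library in 19 of the 20 tested Mup genes. Esculetin 1 was the highest in 15, esculetin 3 in 3 and control 3 in 2. Whether whatever set control 1 apart has a part in the Mup differences was not tested.

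**Figure D3:**
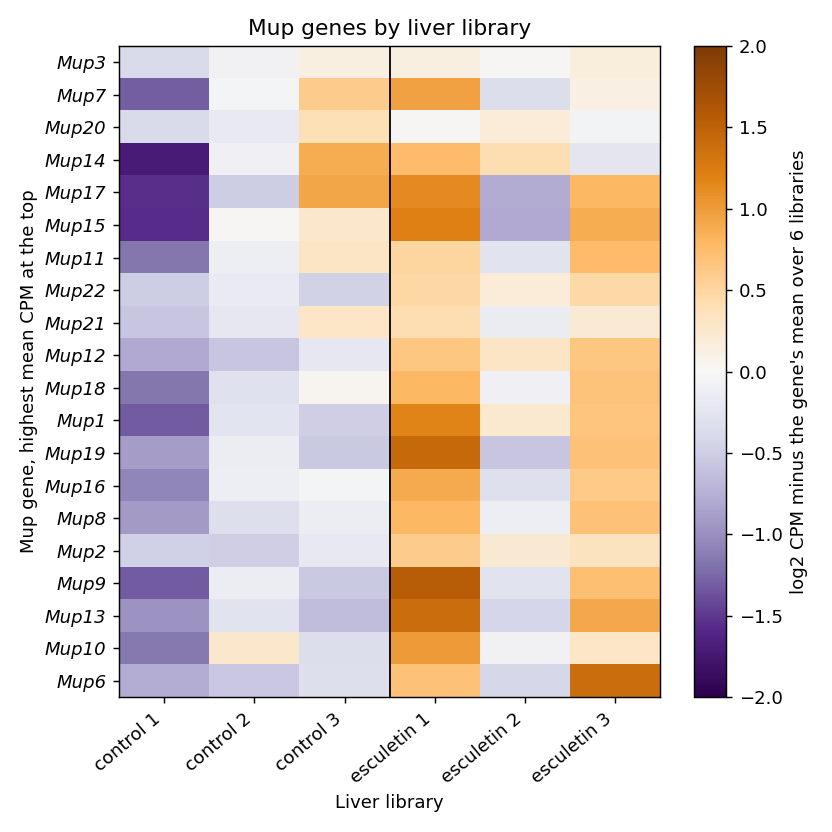
Each row is a tested Mup gene and each column a liver library, with colour for the log2 CPM minus the mean of that gene over 6 libraries. Control 1 is the lowest column in 19 of 20 rows and esculetin 1 the highest in 15, while Mup12 and Mup2 are lower in all 3 controls than in all 3 esculetin livers.

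A sum over the 22 Mup genes does not depend on how reads were divided among them. Reads discarded for matching several copies would be missing from it. Reads assigned to Mup pseudogenes, 1496 to 2572 counts per liver library, are also left out. The 22 Mup genes together made up 1.72%, 2.43% and 3.30% of the counts in control livers. With esculetin they made up 3.70%, 2.42% and 2.81%. The groups overlapped, at 24728 ± 9415 and 30499 ± 6698 CPM (SD, n = 3). The log2 fold change of the pool was 0.30 ± 0.26 (SE), and 0.06 without control 1.

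Mup12 supplied only a small part of that pool, 0.304%, 0.227% and 0.206% in control and 0.340%, 0.412% and 0.443% in esculetin livers. The share was higher in every esculetin liver than in any control. It is formed from the Mup12 counts whose rise led to the choice of genes, so it is no separate evidence of that rise. The split of reads between Mup12 and its copies also remains uncertain. Mup3 supplied 50.8%, 40.1% and 32.8% of the pool in control and 29.5%, 41.9% and 39.4% in esculetin livers, with overlap. Mup20 supplied 18.2%, 13.3% and 14.2% in control and 9.87%, 16.9% and 12.3% in esculetin livers, also with overlap.

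Among 6758 liver genes with a mean of at least 10 CPM, the patterns most like that of Mup12 over the 6 libraries belonged to Lap3 (Pearson r = 0.994), Agxt2 (0.990), Smim14 (0.986), Acad12 (0.982) and Tmem258 (0.980). These are correlations of log2 CPM over libraries that share the treatment difference, given as a description. Mup2 ranked 8 at 0.974, Igf1 ranked 74 at 0.930 and Socs2 ranked 429 at 0.835, whereas Cish stood at 0.239 and Stat5a at -0.32.

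The cell table showed a different picture of the same genes. The Mup genes were not detected there, with 21 of 22 at 0 in all 6 libraries, apart from a single count of Mup3 in control 3. Socs2, Igfals, Mup12 and Mup20 were also at 0 throughout, which allows up to 0.150 to 0.218 CPM per library (3 counts, counting error only). Cish had 2, 8 and 10 counts in control and 1, 9 and 8 counts in esculetin cells, too few to be tested. The other 4 members were tested, and 2 were called higher and 1 lower. Over all 13277 genes tested in the cells, 28.7% were called higher and 29% lower, so a call there is common.

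Ghr was barely detected in control cells, with 0, 4 and 2 counts, and had 17, 18 and 19 counts with esculetin. All esculetin libraries lay above all controls, at 1.18 ± 0.102 CPM against 0.104 ± 0.108 CPM (SD, n = 3). The log2 fold change was 3.42 ± 0.64, with an adjusted p-value of 0.000780 (edgeR). Ghr passed the filter on low counts only through its esculetin libraries, so this p-value is read as a description. From the 54 and 6 pooled counts the ratio was 10.8, with an exact 95% interval of 4.67 to 30.8 that covers counting error only. Ghr nevertheless stayed low, at 0.262 CPM per kb in esculetin cells against 61.2 in control livers, a comparison across tables normalized separately.

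Igf1, which macrophages also make, had 1.87, 1.56 and 1.56 CPM in control cells, from 36, 29 and 32 counts. With esculetin it had 7.98, 14.6 and 19.7 CPM, from 109, 214 and 354 counts. The lowest esculetin library was above every control by a wide margin, although the esculetin libraries spread widely among themselves. The log2 fold change was 3.09 ± 0.31, with an adjusted p-value of 9.93e-06 (edgeR).

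Stat5a had 38.5, 42.7 and 40.9 CPM in control cells and 15.1, 16.2 and 16.5 CPM with esculetin. The groups were tight and far apart, for a log2 fold change of -1.35 ± 0.11 and an adjusted p-value of 1.83e-06 (edgeR). Stat5b had 36.0, 39.3 and 38.6 CPM in control and 34.2, 30.9 and 39.6 CPM in esculetin cells, and the groups overlapped. Its log2 fold change was -0.12 ± 0.11, with an adjusted p-value of 0.384 (edgeR). The per-kilobase ratio of Stat5a to Stat5b accordingly went from 1.38, 1.40 and 1.36 in control cells to 0.568, 0.675 and 0.536 with esculetin. Stat3, which crosses Stat5a on the opposite strand, held 1681 to 3436 counts per cell library. Without a stated strand setting, reads in that overlap cannot be told apart here either, for Stat5a or for its ratio.

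**Figure D4:**
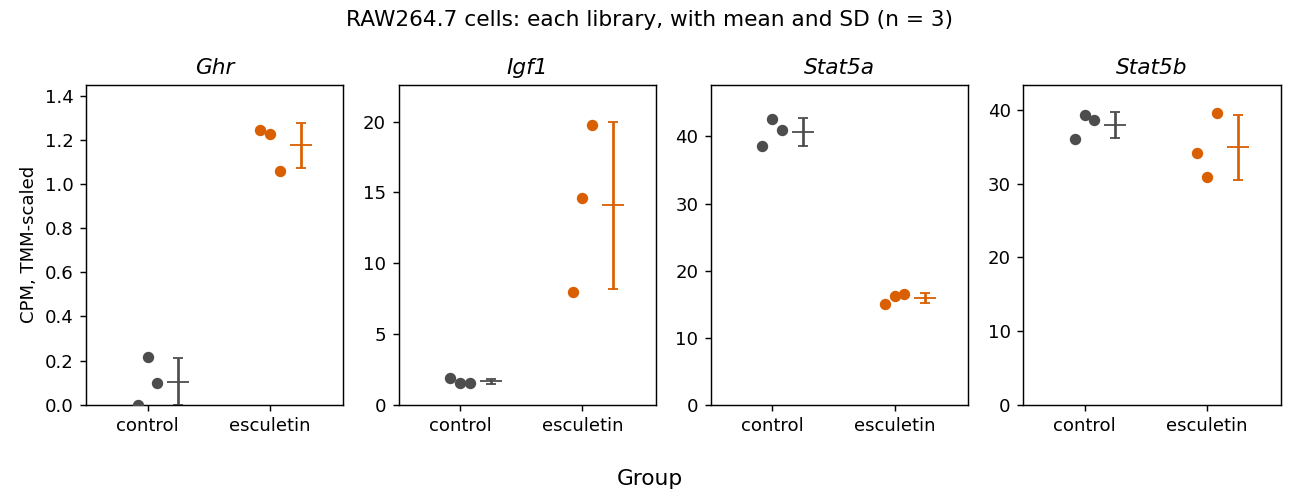
CPM of Ghr, Igf1, Stat5a and Stat5b in RAW264.7 cells (y axes from 0), 1 point per library with the mean and SD of each group of 3 beside the points. Ghr and Igf1 are higher and Stat5a lower in all 3 esculetin libraries, while Stat5b overlaps between groups.

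The calls of Ghr, Igf1 and Stat5a in cells were kept in all 14 alternatives. The sum of the macrophage markers was also higher, at 2184-2346 CPM in control and 4857-7358 CPM in esculetin cells, with Timd4 at 0. It was dominated by Lyz2, which ranged from 600 to 4704 CPM over the cell libraries. Csf1r ranged from 791 to 1760, Cd68 from 499 to 716, Ptprc from 138 to 227 and Adgre1 from 32.5 to 44.2 CPM. The sum therefore gives no direction for single markers. Of 6 tested markers 4 were called, where 57.7% of all tested genes in cells were called in either direction. Their part in the differences of the members was not tested.

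The effects in cells and liver were compared directly in a model of all 12 libraries, in which 27.1% of 15709 tested genes were called. The liver side of this difference is the contrast known when the genes were chosen. Ghr was read here only because its esculetin libraries passed the filter on low counts in cells, so its difference is a description. The log2 fold change in cells exceeded that in liver by 3.26 ± 0.46 for Ghr (adjusted p-value 9.39e-05) and by 2.82 ± 0.33 for Igf1 (1.72e-05), in edgeR. For Stat5a it was lower in cells, with a difference of -1.31 ± 0.17 (5.40e-05). For Stat5b the difference of -0.35 ± 0.16 did not pass the test (0.118). The other 6 members could not be compared, since they were not tested in cells.

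The rest of the pathway was read from lists of genes. The lists were chosen with earlier results of these data known, so the p-values of their genes are read as descriptions. In liver none of the 11 receptors and kinases, 3 tested genes of the list of other STAT factors, 13 feedback inhibitors and phosphatases and 8 tested IGF carriers and relatives was called by edgeR, DESeq2 or limma-voom, with 1, 1, 0 and 1 at an unadjusted p-value under 0.05 in edgeR. Over all tested genes, 8.37% had an unadjusted p-value under 0.05 in edgeR. The list medians were -0.02, -0.03, -0.09 and 0.03. The receptors with the smallest p-values were Sh2b2, an adaptor of JAK2, at a log2 fold change of 0.69 ± 0.26, the insulin receptor Insr at -0.31 ± 0.17 and the prolactin receptor Prlr at -0.28 ± 0.16. Stat2 had 63.5 ± 10.3 CPM in control and 45.2 ± 1.55 CPM in esculetin livers, a log2 fold change of -0.49 ± 0.13 with an adjusted p-value of 0.305 (edgeR). Igfbp3, which carries IGF1 together with the Igfals product, had 25.2 ± 3.97 and 18.0 ± 0.311 CPM, or -0.48 ± 0.15, with an adjusted p-value of 0.354 (edgeR). Of the 13 listed inhibitors 2 had a log2 fold change above 0 and 11 below, beside 5959 above 0 of all 12813 tested genes. Socs2 and Cish stood at 1.72 and 1.32, with Cish at -0.16 without esculetin 1. Their difference from the list was not tested.

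Of 28 liver genes listed as male-biased under growth hormone, 27 were tested. The 1 called, beside 0.0859% of all tested genes, was Ugt2b38, a glucuronosyltransferase. It had 7.00, 10.3 and 8.57 CPM in control and 35.4, 17.5 and 22.8 CPM in esculetin livers, for a log2 fold change of 1.55 ± 0.24 and an adjusted p-value of 0.0385 (edgeR). Since the list was chosen with earlier results known, this p-value is read as a description. The log2 fold change was above 0 in 24 of the 27, with a median of 0.29, beside 5959 above 0 of all 12813 tested genes. An unadjusted p-value under 0.05 was found for 9 of the 27, beside 8.37% of all tested genes (edgeR). In 8 the esculetin group lay wholly above the control group, beside 6.52% of all tested genes, and in 0 wholly below. Leaving out control 1 left 20 of 27 above 0 with a median of 0.15, and 0 called. The count called was also 0 without control 2, control 3, esculetin 1 or esculetin 3, and 2 without esculetin 2. It was 0 as well with limma-voom, upper quartile scaling, library size only or a minimum of 1 CPM in 3 libraries.

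Of 31 female-biased genes 15 were tested. The 1 called, beside 0.0859% of all tested genes, was the peroxisomal acyl-CoA thioesterase Acot3, which was lower with esculetin. It had 226, 139 and 82 counts in control and 6, 21 and 6 counts in esculetin livers, a log2 fold change of -3.63 ± 0.51 with an adjusted p-value of 0.0225 (edgeR). Acot3 passed the filter on low counts only through the control livers, and its list was chosen with earlier results known. Its p-value is therefore read as a description. Acot3 included, 8 of the 15 log2 fold changes were above and 7 below 0, with a median of 0.06. An unadjusted p-value under 0.05 was found for 5 of the 15, beside 8.37% of all tested genes (edgeR). The groups did not overlap in 2 of the 15 in the higher and in 3 in the lower direction, beside 6.52% and 7.95% of all tested genes. The count called was 0 without control 2, esculetin 1 or esculetin 3, and 0 with limma-voom or library size only. None of 15 tested transcription factors of the sex-biased programme was called by edgeR, DESeq2 or limma-voom. In edgeR 1 had an unadjusted p-value under 0.05, beside 8.37% of all tested genes, which was Onecut1 at 0.91 ± 0.37 on the log2 scale.

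**Figure D5:**
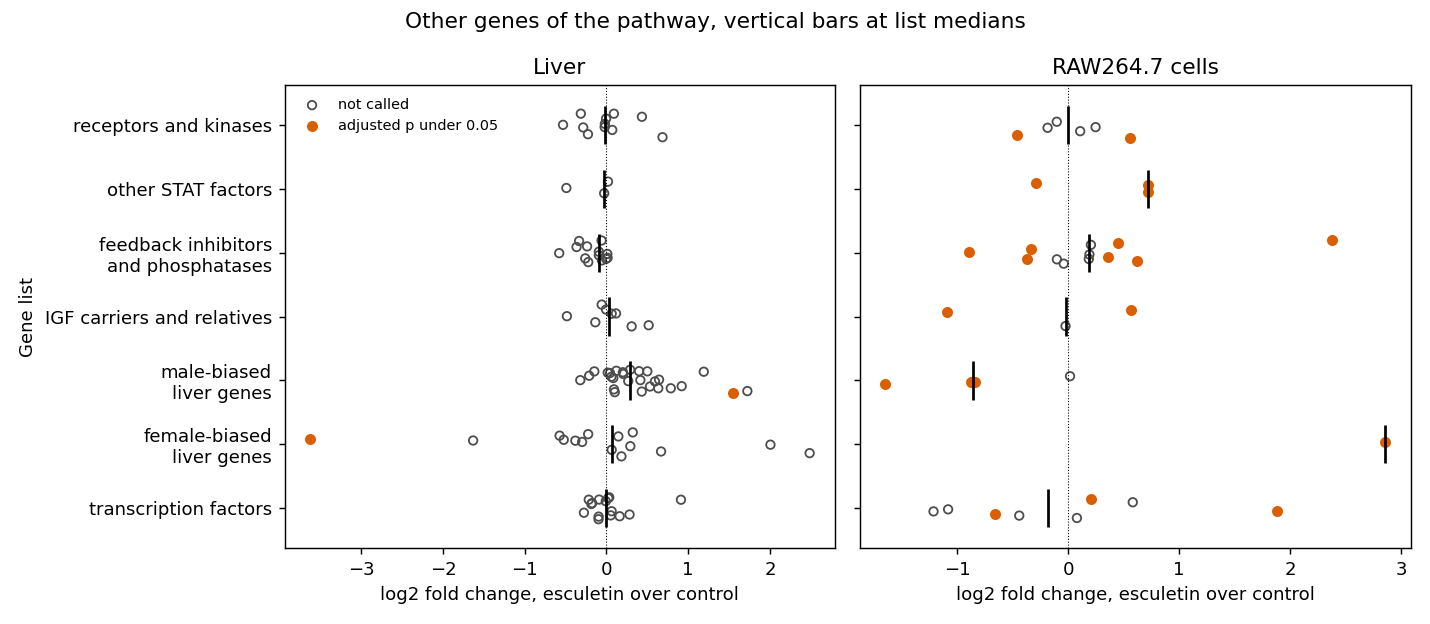
Log2 fold change of each tested gene of the other pathway lists (x axis) in liver and in RAW264.7 cells, with filled points for an adjusted p-value under 0.05 and vertical bars at the list medians. In liver only Ugt2b38 at 1.55 and Acot3 at -3.63 are filled, and the male-biased median lies at 0.29.

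In the cells, pathway genes around Stat5a and Ghr were called in both directions, and their counts are to be read against the 57.7% of all genes called there. Stat2 and Stat6 rose, by 0.72 ± 0.15 and 0.72 ± 0.08 on the log2 scale, and Stat3 fell by 0.29 (SE 0.09). These 3 calls had adjusted p-values of at most 0.0180 (edgeR). Jak1 rose by 0.56 ± 0.09 and Sh2b2 fell by 0.46 (SE 0.09), of 6 tested receptors and kinases. Of 12 tested feedback inhibitors and phosphatases 4 were called higher and 3 lower. Socs3, the inhibitor induced by STAT3, rose from 8.32 ± 0.765 to 43.0 ± 10.3 CPM, or by 2.37 ± 0.17 on the log2 scale, with an adjusted p-value of 1.07e-06 (edgeR), while Socs2 was at 0. Ptpn6, the phosphatase SHP-1, fell from 546 ± 29.4 to 295 ± 13.2 CPM. Sh2b3, Pias3 and Ptpn2 rose by 0.62, 0.45 and 0.36 on the log2 scale, and Socs7 and Ptpn1 fell by 0.37 and 0.33. Among the IGF carriers Igfbp4 fell from 96.1 ± 10.2 to 44.9 ± 5.31 CPM and Igf2r, the clearance receptor of IGF2, rose from 360 ± 3.58 to 533 ± 32.5 CPM, beside the rise of Igf1. Few of the sex-biased liver genes were measurable in these cells. Gstp1, Cyp2u1 and Selenbp2 fell, 3 of 4 tested male-biased genes, and Atp6v0d2, the only female-biased gene tested, rose by 2.86 on the log2 scale. Of 8 tested transcription factors Cux2 and Bcl6 rose and Trim24 fell, at log2 fold changes of 1.88, 0.20 and -0.66.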

How the data were processed

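The authors deposited unnormalized read counts per gene locus, in 1 table of 6 liver and 1 table of 6 cell libraries, with 0 columns left unused. According to the study, libraries were sequenced with paired ends, aligned to GRCm39 with HISAT2 2.2.1 and counted with featureCounts. The submitters' processing notes list mm10 beside GRCm39. Strand setting, annotation release and treatment of reads with several matches are not given in the sources used here. Symbols, coordinates and transcript sequences came from the GENCODE annotation of GRCm39, where 54749 identifiers matched and 608 did not, and reference sequences were read from that genome build.

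The 2 tables were analysed separately (R 4.3.3, edgeR 4.0.16) by a two-sided quasi-likelihood test with filterByExpr, TMM factors and no term but treatment. Benjamini-Hochberg adjustment covered every gene tested in a table. The SE was obtained by dividing the absolute log2 fold change by the root of F. The study's criterion, a fold change over 1.5 at an unadjusted p-value under 0.05, was run as an alternative in limma-voom (limma 3.58.1), as was DESeq2 1.42.0. The scripts were tested on simulated data. Likeness to Mup12 used log2(CPM + 1).

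The members and lists were chosen with earlier results of these data known. A listed item is not reported here. Named were all members, other Mup genes with a mean of at least 10 CPM, every called gene of a list or else up to 3 with the smallest p-values, and the 5 genes most like Mup12. In the liver, not all such genes of a list are printed. Alternatives were other scalings and filters, other tests, a replicate block and leaving out each library. The check of deviations did not settle whether the replicate numbers pair the libraries, and the main fits used no pairing.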

Additional observations from a re-analysis of the deposited data

Results flagged for a closer look

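The effects of esculetin in RAW264.7 cells and in liver differed for 3 members by a direct test of the difference (edgeR, all 12 libraries). The difference, cells minus liver, was 3.26 on the log2 scale for Ghr, 2.82 for Igf1 and -1.31 for Stat5a. In the separate fits of each table, which do not subtract to exactly these values, the log2 fold changes in cells and liver were 3.42 and 0.08 for Ghr, 3.09 and 0.23 for Igf1, and -1.35 and -0.09 for Stat5a. All 3 remained past the threshold in the 16 alternatives, with adjusted p-values of at most 0.000751, 0.000146 and 0.000477 (edgeR). Ghr passed the filter on low counts in cells only through its esculetin libraries, so its difference is read as a description. Cells and mice also differed in dose, exposure, diet and cell type, which cannot be told apart here.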

How the results depend on the processing

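The liver count of 11 called genes was 0 with library size only, 339 with no filter on low counts, 98 in DESeq2, and 499 under the study's own criterion in limma-voom. Leaving out 1 library gave 0 to 31. With the replicate number as a block it was 123, and Socs2 (1.89, adjusted p-value 0.00989) and Cish (0.96, adjusted p-value 0.0438) were then called, as they were with no filter. The numbers pair nothing that the labels name, and the deviations of same-numbered libraries correlated at 0.161, -0.010 and 0.123 in liver and at 0.204, -0.043 and 0.127 in cells. In liver 4 of 6 and in cells 3 of 6 libraries matched best with their own number. The block changed no other member's call. In cells 7667 genes were called, and 5041 under the study's criterion.

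Mup20 in liver ran from -0.08 to 0.32 when single libraries were left out, being -0.083 without control 1, -0.0088 without control 2 and -0.0084 without esculetin 2. Cish ran from -0.16 to 1.93, the low end without esculetin 1, and Stat5a from -0.15 to 0.031, the high end without control 2. The pooled Mup difference ran from 0.06 to 0.60. Called male-biased genes numbered 9 with no filter, 6 with the block and 4 in DESeq2, and 0 with limma-voom, upper quartile, library size only or at least 1 CPM in 3 libraries. The cause was not tested in any of these. Cish in cells, at 1 to 10 counts, was below the filter and was not tested. The counts of Mup genes and male-biased genes above 0 with single libraries left out were added after the data were seen.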
